A study of Mus musculus with 18 samples.

Results

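The small proline-rich genes (Sprr) encode short proteins that transglutaminases cross-link into the cornified envelope, the protein shell of dying keratinocytes. They lie side by side in the epidermal differentiation complex, a gene cluster shared with other envelope precursors such as loricrin and with the S100 calcium-binding proteins. Outside the skin several are known as stress-responsive genes: Sprr1a is induced in injured sensory neurons and in overloaded heart muscle, the latter by cytokines that signal through gp130, and Sprr2 genes are induced in bile duct epithelium and in the estrogen-stimulated uterus. The 6 genes described here are Sprr2b, Sprr2e, Sprr2f, Sprr2i, the pseudogene Sprr2j-ps and Sprr1a, and every row of the expression table annotated to any of them was kept. That gave 7 of 35556 rows. Each gene had 1 row with its symbol alone, and 1 further row was annotated jointly to Sprr2b, Sprr2a1, Sprr2a2 and Sprr2a3.

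Expression was measured on 18 arrays of C2C12 cells, a mouse myoblast line that fuses into myotubes when serum is withdrawn. In all 6 groups of 3 arrays the endogenous TAF3, a subunit of the core promoter factor TFIID, had been depleted and replaced either by wild-type TAF3 (WT-TAF3) or by KK-TAF3, a mutant whose PHD finger no longer binds phosphoinositides. WT-TAF3 cells came without PIP4K2B depletion (WT-TAF3 control, for which the sample labels name no control shRNA and the study's figures name shX) or with an shRNA against PIP4K2B, a lipid kinase that consumes nuclear PI5P (WT-TAF3 sh-PIP4K2B), and KK-TAF3 cells came only with that shRNA (KK-TAF3 sh-PIP4K2B). Each of these 3 cell lines was either differentiated, for 2 days by the sample labels and 3 by the series text, or treated with 10 µM etoposide, a topoisomerase II inhibitor that breaks DNA, for 7 h. With no KK-TAF3 cells that kept PIP4K2B, the mutant can be compared only within depleted cells. The lines were made by stable transduction, so the differentiated and the etoposide arrays of a genotype may come from the same line, and p-values measure only the spread between the labelled triplicates.

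Values are log2 signals, so a difference of 1 is a doubling, and all differences come from 1 limma model of the 6 group means. The threshold asked for a change above 1.4-fold together with a p under 0.05 after Benjamini-Hochberg adjustment over all 35556 rows. The genes were chosen by measured values of these arrays: Sprr2b, Sprr2i and Sprr2j-ps by their depletion difference in differentiated cells, while the values that chose Sprr2e, Sprr2f and Sprr1a are not recorded. For these genes every comparison that uses differentiated arrays is therefore given as a description without p-values. Their counts past the threshold there are printed beside the share of all rows, except counts under other settings, from which nothing is read about the genes. Tests of these genes are given only between genotypes after etoposide, where a part of those arrays in the choice of Sprr2e, Sprr2f and Sprr1a cannot be told. The arrays agreed closely within groups (r from 0.990 to 0.997 between triplicates), with array medians of 7.25 to 7.46 and lowest values of 2.45 to 2.68. The table holds no detection calls, so whether a signal near 5 lies above background is not known. Pip4k2b fell after depletion by 1.14 (SE 0.10) in differentiated cells and by 0.88 (SE 0.10) in etoposide-treated cells, and Taf3, whose probes may or may not see the rescue construct, differed by at most 0.17 between genotypes of a treatment. The skeletal muscle genes expected of C2C12 cells are given with the gene lists below. Of 8 macrophage markers none was past the threshold in any genotype comparison (limma, and 0 without p-value adjustment too, at p under 0.05 and 1.4-fold), but their summed linear signal was 911 to 948 in control, 986 to 1014 in depleted WT-TAF3 and 1006 to 1052 in KK-TAF3 cells after differentiation, and 1069 to 1129, 1135 to 1177 and 1181 to 1234 after etoposide. Its part in the results was not tested.

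TAF3 acts at core promoters, so the sequence before each start is shown first, as a description of what the genes share. Promoter windows (RefSeq, GRCm38.p6) were at hand for 5 of the 6 genes, all on chromosome 3. Sprr2j-ps, which the gene annotation also places on chromosome 3, had no window. The 250 bases before each start are printed below in the direction of transcription, with 3 motifs in capitals. They are the TATA box TATAAA, the AP-1 site TGANTCA and, where present, the octamer ATTTGCAT. The octamer was searched for only after the sequences had been seen.
Sprr2b promoter, chr3:92316455-92316704 (+ strand): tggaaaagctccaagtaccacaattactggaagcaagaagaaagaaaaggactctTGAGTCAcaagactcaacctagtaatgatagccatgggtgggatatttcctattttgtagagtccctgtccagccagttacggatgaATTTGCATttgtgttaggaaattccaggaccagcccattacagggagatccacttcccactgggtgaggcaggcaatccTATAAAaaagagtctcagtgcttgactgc
Sprr2e promoter, chr3:92351893-92352142 (+ strand): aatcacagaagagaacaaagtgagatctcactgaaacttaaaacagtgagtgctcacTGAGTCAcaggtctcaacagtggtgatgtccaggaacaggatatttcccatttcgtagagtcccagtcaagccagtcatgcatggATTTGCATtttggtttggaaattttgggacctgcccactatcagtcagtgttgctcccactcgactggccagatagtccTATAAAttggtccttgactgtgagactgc
Sprr2f promoter, chr3:92364937-92365186 (+ strand): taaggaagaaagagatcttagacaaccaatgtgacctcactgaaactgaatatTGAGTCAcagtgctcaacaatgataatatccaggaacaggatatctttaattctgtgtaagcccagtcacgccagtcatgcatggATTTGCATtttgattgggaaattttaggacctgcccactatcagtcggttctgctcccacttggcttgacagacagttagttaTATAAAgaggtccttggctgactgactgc
Sprr2i promoter, chr3:92407741-92407990 (+ strand): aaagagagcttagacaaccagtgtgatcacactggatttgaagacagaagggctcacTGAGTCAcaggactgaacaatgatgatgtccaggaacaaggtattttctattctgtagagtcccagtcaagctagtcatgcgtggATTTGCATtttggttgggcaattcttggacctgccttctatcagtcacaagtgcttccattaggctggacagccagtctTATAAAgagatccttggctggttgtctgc
Sprr1a promoter, chr3:92485882-92486131 (- strand): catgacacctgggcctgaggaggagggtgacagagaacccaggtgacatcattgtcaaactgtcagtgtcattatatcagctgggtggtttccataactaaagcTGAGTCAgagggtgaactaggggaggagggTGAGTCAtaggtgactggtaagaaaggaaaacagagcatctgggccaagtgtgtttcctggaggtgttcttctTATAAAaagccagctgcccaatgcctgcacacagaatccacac
The 4 Sprr2 promoters have the same layout. TATAAA begins 29 bases before the start in all 4, ATTTGCAT 108 to 112 bases before it and TGANTCA 193 to 197 bases before it. In Sprr1a, TATAAA begins 43 bases before the start, TGANTCA occurs 2 times, 116 and 146 bases before it, and ATTTGCAT is absent from the window. The layout is not particular to these genes. Sprr2d, Sprr2h and Sprr2k also have TATAAA 29 bases before the start, ATTTGCAT 108 or 109 bases and TGANTCA 193 to 198 bases before it, Sprr2k with a further TGANTCA at 182. Both strands of windows from 250 bases before to 50 after the start were searched. Among all 32851 such windows 13.6% hold TATAAA, 7.81% hold TGANTCA and 1.74% hold ATTTGCAT. Other motifs were not shared by all 5 windows or were common everywhere: CACCC (57.5% of all windows) occurs in Sprr2b and Sprr1a, GGAAG (71.4%) in Sprr2b, Sprr2f and Sprr2i, CANNTG (72.3%, in Sprr2b overlapping the octamer) in all 5, and CAGCTG (16.3%), a form of CANNTG, in Sprr1a alone. The Sprr2b window is 65.7% to 67.0% identical to those of Sprr2e, Sprr2f and Sprr2i, and the Sprr1a window 48.7% to 51.6% identical to those of 7 Sprr2 genes. The signals of these genes differed in direction between genotypes, as follows.

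Sprr2b had the widest range. In WT-TAF3 control cells its log2 signal was 5.16, 5.60 and 5.37 after differentiation. In WT-TAF3 sh-PIP4K2B cells it was 9.45, 9.55 and 9.46, and in KK-TAF3 sh-PIP4K2B cells 5.81, 5.79 and 5.49. All 3 depleted WT-TAF3 arrays thus lay far above the other 6, and KK-TAF3 cells, depleted with the same shRNA, lay near the controls. The means were 5.38 ± 0.22, 9.48 ± 0.06 and 5.70 ± 0.18 (SD, n = 3). The depletion difference was 4.11 (SE 0.14), a 17.2-fold ratio of signals, and the difference of KK-TAF3 from WT-TAF3 cells with the shRNA was -3.79 (SE 0.14). Since the low signals may be background, here and after etoposide, these ratios of signals may understate the change in transcript. Between KK-TAF3 sh-PIP4K2B and WT-TAF3 control cells the difference was 0.32 (SE 0.14). Pip4k2b itself was 0.31 higher (SE 0.10) in differentiated KK-TAF3 than in WT-TAF3 sh-PIP4K2B cells, under the fold limit. Whether depletion was weaker in KK-TAF3 cells, and its part in the Sprr2b difference, was not tested.

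In etoposide-treated cells Sprr2b was again highest in depleted WT-TAF3 cells. These arrays are not known to have entered the choice of genes. However, the study had already reported by QRT-PCR a rise of Sprr2b on depletion after etoposide, suppressed in KK-TAF3 cells. The tests below are therefore not independent of earlier results. The signal was 5.82, 5.50 and 5.90 in WT-TAF3 control cells. It was 8.11, 7.88 and 7.98 in WT-TAF3 sh-PIP4K2B cells and 5.79, 5.77 and 5.35 in KK-TAF3 sh-PIP4K2B cells. Depleted WT-TAF3 cells were again above every other array of the treatment. Depletion raised Sprr2b by 2.25 (SE 0.14, limma adjusted p = 1.46e-06), or 4.76-fold. With PIP4K2B depleted, KK-TAF3 cells had 19.5% of the WT-TAF3 signal, a log2 difference of -2.36 (SE 0.14, limma adjusted p = 5.13e-07). These comparisons share the WT-TAF3 sh-PIP4K2B arrays and so are not independent of each other. KK-TAF3 sh-PIP4K2B and WT-TAF3 control cells differed by -0.10 (SE 0.14, limma adjusted p = 0.947). The depletion difference after etoposide minus that after differentiation was -1.86 (SE 0.20). Etoposide minus differentiated signal was -1.49 (SE 0.14) in depleted WT-TAF3, 0.37 (SE 0.14) in WT-TAF3 control and -0.06 (SE 0.14) in KK-TAF3 cells. Pip4k2b differed by 0.17 (SE 0.10, limma adjusted p = 0.536) between KK-TAF3 and WT-TAF3 sh-PIP4K2B cells after etoposide.

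**Figure D1:**
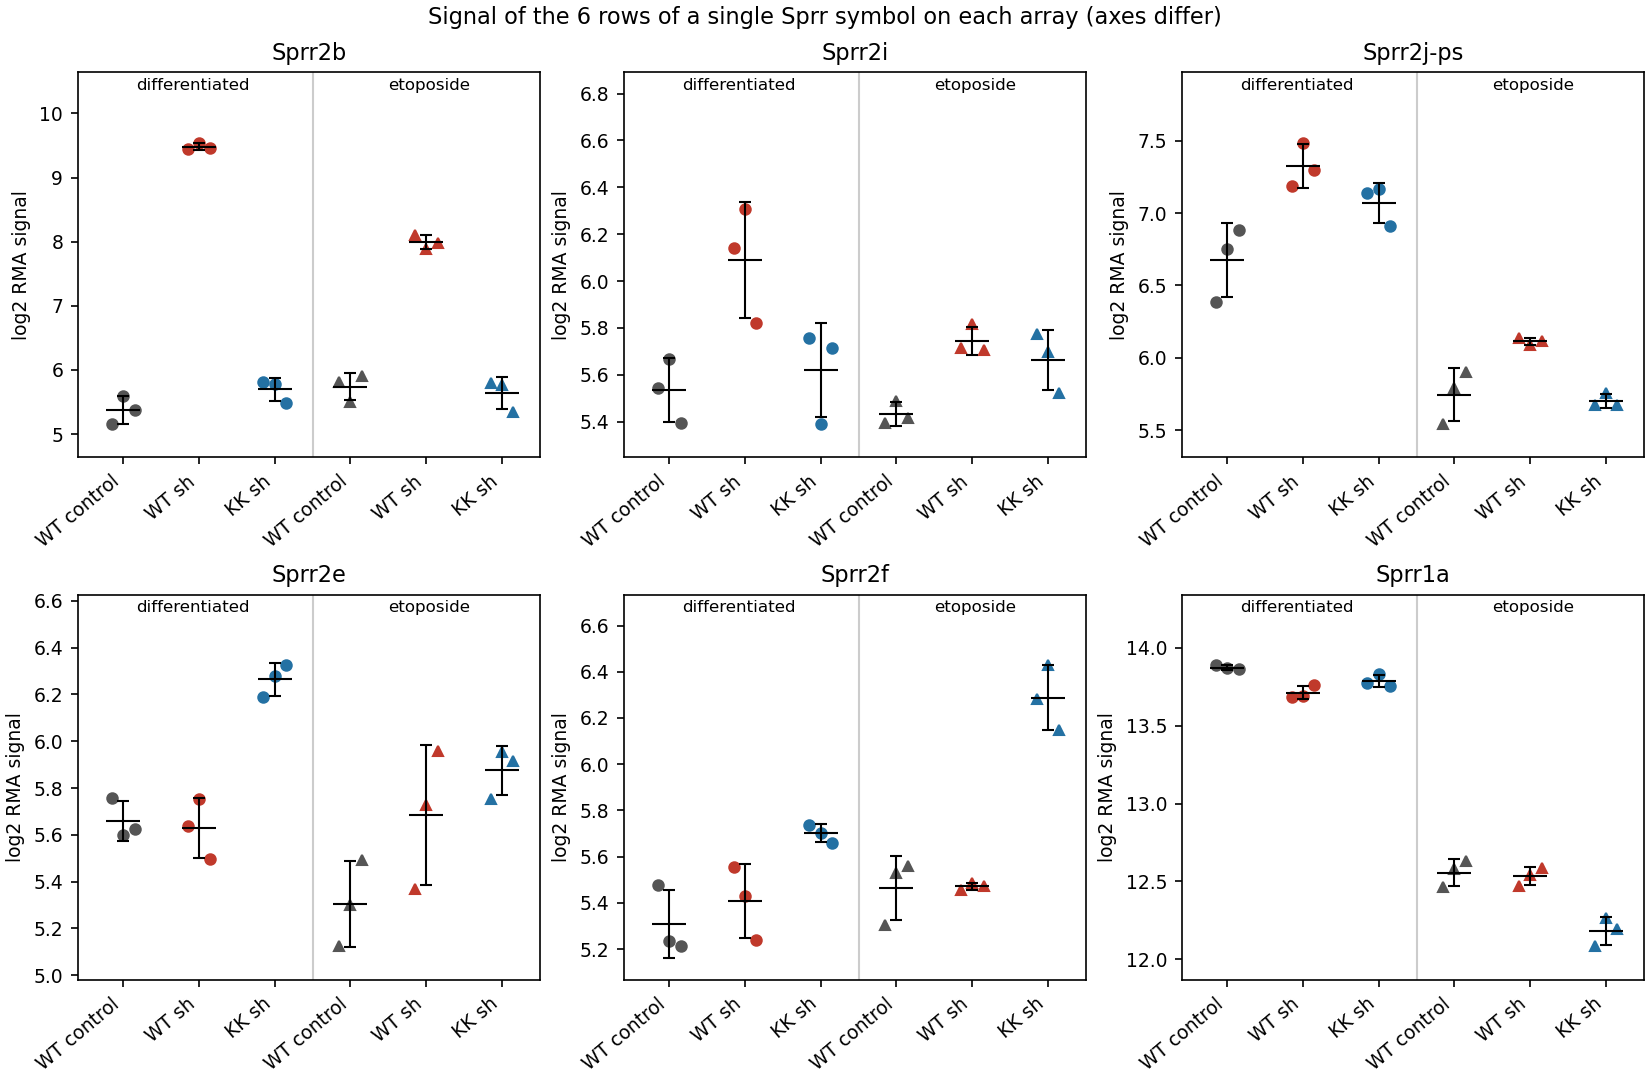
Log2 RMA signal (vertical axes, which differ between panels) of the 6 rows with a single Sprr symbol on each array, by cell line (WT control is WT-TAF3 control, WT sh is WT-TAF3 sh-PIP4K2B, KK sh is KK-TAF3 sh-PIP4K2B) and treatment. Circles are differentiated and triangles etoposide arrays, and the bar and whiskers give the mean and SD of 3 arrays. Sprr2b stands at 9.48 and 7.99 in depleted WT-TAF3 cells and at 5.38 to 5.74 in the other groups, Sprr2e and Sprr2f reach their highest means in KK-TAF3 cells, and Sprr1a is lower after etoposide in every line.

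Sprr2i and Sprr2j-ps, which follow one another in the gene order, moved the same way as Sprr2b in differentiated cells by much less. Sprr2i read 5.54, 5.67 and 5.39 in WT-TAF3 control, 6.14, 6.31 and 5.82 in WT-TAF3 sh-PIP4K2B and 5.76, 5.39 and 5.72 in KK-TAF3 sh-PIP4K2B cells. The depleted WT-TAF3 arrays did not overlap with either other group, although the lowest of them lay close to the highest KK-TAF3 array. Depletion changed Sprr2i by 0.56 (SE 0.12) and KK-TAF3 against WT-TAF3 by -0.47 (SE 0.12). After etoposide the signal was 5.40, 5.49 and 5.41 in control, 5.71, 5.81 and 5.70 in depleted WT-TAF3 and 5.77, 5.70 and 5.52 in KK-TAF3 cells. The control arrays lay below all others, but neither the depletion difference of 0.31 (SE 0.12, limma adjusted p = 0.311) nor the KK-TAF3 difference of -0.08 (SE 0.12, limma adjusted p = 0.817) passed the test.

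Sprr2j-ps, annotated as a transcribed pseudogene, carried 2 patterns at once. In differentiated cells it read 6.39, 6.75 and 6.88 in WT-TAF3 control, 7.19, 7.49 and 7.30 in WT-TAF3 sh-PIP4K2B and 7.14, 7.17 and 6.91 in KK-TAF3 sh-PIP4K2B cells. Both depleted lines were above the control on every array. Depletion changed it by 0.65 (SE 0.12) and KK-TAF3 against WT-TAF3 by -0.25 (SE 0.12), so that KK-TAF3 cells kept a signal 0.40 (SE 0.12) above the control. After etoposide it read 5.55, 5.79 and 5.90 in control, 6.14, 6.09 and 6.11 in depleted WT-TAF3 and 5.67, 5.76 and 5.68 in KK-TAF3 cells. The depleted WT-TAF3 arrays again stood above both other groups without overlap. Neither the depletion difference of 0.37 (SE 0.12, limma adjusted p = 0.211) nor the KK-TAF3 difference of -0.41 (SE 0.12, limma adjusted p = 0.251) passed the test. All 9 etoposide arrays lay below all 9 differentiated arrays, with etoposide signals at 52.6% of the differentiated ones in control, 43.2% in depleted WT-TAF3 and 38.7% in KK-TAF3 cells.

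Sprr2e and Sprr2f, neighbours in the cluster, had their highest mean of each treatment in KK-TAF3 cells, where Sprr2b was near its control. Sprr2f after etoposide was 5.31, 5.53 and 5.56 in WT-TAF3 control, 5.46, 5.49 and 5.47 in WT-TAF3 sh-PIP4K2B and 6.28, 6.43 and 6.15 in KK-TAF3 sh-PIP4K2B cells. Depletion in WT-TAF3 cells left a difference of 0.01 (SE 0.10, limma adjusted p = 0.982), whereas KK-TAF3 cells were higher than depleted WT-TAF3 cells by 0.82 (SE 0.10, limma adjusted p = 8.50e-04), or 1.76-fold, and higher than the control by 0.82 (SE 0.10, limma adjusted p = 3.12e-04). The KK-TAF3 arrays stood clear of the other 6. With only the 2 compared groups in the fit, the first of these calls was lost (limma adjusted p = 0.226). Whether etoposide arrays had a part in the choice of Sprr2f is not recorded, so these p-values may not be independent of that choice. In differentiated cells Sprr2f was 5.48, 5.23 and 5.21 in control, 5.55, 5.43 and 5.24 in depleted WT-TAF3 and 5.74, 5.70 and 5.66 in KK-TAF3 cells. KK-TAF3 arrays were again the highest, by 0.29 (SE 0.10) over depleted WT-TAF3 and 0.39 (SE 0.10) over control cells.

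Sprr2e showed the larger KK-TAF3 difference in the differentiated cells. It read 5.76, 5.60 and 5.62 in control, 5.64, 5.75 and 5.50 in depleted WT-TAF3 and 6.19, 6.28 and 6.33 in KK-TAF3 cells. KK-TAF3 arrays were the highest 3 of 9, by 0.63 (SE 0.13) over depleted WT-TAF3 and 0.60 (SE 0.13) over control cells, and depletion in WT-TAF3 cells gave -0.03 (SE 0.13). After etoposide Sprr2e read 5.13, 5.30 and 5.49 in control, 5.37, 5.73 and 5.96 in depleted WT-TAF3 and 5.75, 5.95 and 5.92 in KK-TAF3 cells. The depleted WT-TAF3 arrays spread over the range of both other groups. As for Sprr2f, a part of the etoposide arrays in the choice of Sprr2e is not known. KK-TAF3 cells exceeded control cells by 0.57 (SE 0.13, limma adjusted p = 0.0322), while depletion gave 0.38 (SE 0.13, limma adjusted p = 0.224) and KK-TAF3 against WT-TAF3 gave 0.19 (SE 0.13, limma adjusted p = 0.576). Single arrays decided some of these calls. Without WT-TAF3 sh-PIP4K2B etoposide replicate 1 the depletion difference was 0.54 and passed (limma adjusted p = 0.0188), and the call against control cells was lost in 4 of 6 fits that each left out an array, namely without WT-TAF3 control etoposide replicate 1 or 2 (limma adjusted p = 0.186 and 0.119) or KK-TAF3 sh-PIP4K2B etoposide replicate 2 or 3 (limma adjusted p = 0.127 and 0.0960).

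Sprr1a differed little between genotypes and was lower after etoposide in all 3 lines. In differentiated cells it was 13.89, 13.87 and 13.86 in control, 13.68, 13.69 and 13.76 in depleted WT-TAF3 and 13.77, 13.83 and 13.76 in KK-TAF3 cells, with differences from control of -0.16 (SE 0.06) and -0.09 (SE 0.06). The control arrays were the highest. Sprr1a lay between percentiles 99.4 and 99.7 of the differentiated arrays, and whether differences are compressed at so bright a level was not tested. After etoposide it was 12.46, 12.58 and 12.63 in control, 12.47, 12.54 and 12.59 in depleted WT-TAF3 and 12.08, 12.26 and 12.20 in KK-TAF3 cells. The 3 KK-TAF3 arrays were the lowest. Depletion in WT-TAF3 cells gave -0.02 (SE 0.06, limma adjusted p = 0.896). KK-TAF3 cells differed from depleted WT-TAF3 cells by -0.35 (SE 0.06, limma adjusted p = 0.0234) and from control cells by -0.38 (SE 0.06, limma adjusted p = 0.00411), both below the 1.4-fold limit. A part of the etoposide arrays in the choice of Sprr1a is likewise not known. Etoposide arrays stood at 40.1% of the differentiated signal in control, 44.2% in depleted WT-TAF3 and 32.8% in KK-TAF3 cells.

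Whether the Sprr2b row and its neighbours read each other's transcripts can be looked at in the row that carries 4 symbols. That row read 9.85, 9.72 and 9.72 in differentiated control, 9.98, 10.04 and 10.04 in depleted WT-TAF3 and 9.71, 9.75 and 9.84 in KK-TAF3 cells. Like Sprr2b it was highest in depleted WT-TAF3 cells, with depletion at 0.25 (SE 0.08) and KK-TAF3 against WT-TAF3 at -0.25 (SE 0.08). After etoposide the shared row read 9.22, 9.35 and 9.54 in control, 9.55, 9.69 and 9.76 in depleted WT-TAF3 and 9.80, 9.72 and 9.66 in KK-TAF3 cells. Here the KK-TAF3 arrays overlapped with depleted WT-TAF3 and lay above all control arrays. The KK-TAF3 difference was 0.06 (SE 0.08, limma adjusted p = 0.799), against -2.36 for the Sprr2b row. The difference between the rows was not tested. Depletion gave 0.30 (SE 0.08, limma adjusted p = 0.104), and KK-TAF3 sh-PIP4K2B against control cells 0.36 (SE 0.08, limma adjusted p = 0.0349, under the fold limit). The same change in linear signal gives a smaller log2 difference on the brighter shared row. In linear signal, depletion gave 674 on the Sprr2b row and 167 on the shared row after differentiation, and 201 and 152 after etoposide. KK-TAF3 against WT-TAF3 gave -664 and -166 after differentiation, and -205 and 34 after etoposide. A further pair of rows, annotated to Sprr2a1 and Sprr2a3, held identical values on every array and is counted once. Its differences ran from -0.14 to 0.39 over the 6 genotype comparisons and none passed. Over the 18 arrays Sprr2b correlated at r = 0.51 with the shared row, 0.15 with the Sprr2a row and 0.78 with Sprr2i. These correlations rest on 6 group means, and probe sequences, which could show cross-hybridization, were not analysed here.

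**Figure D2:**
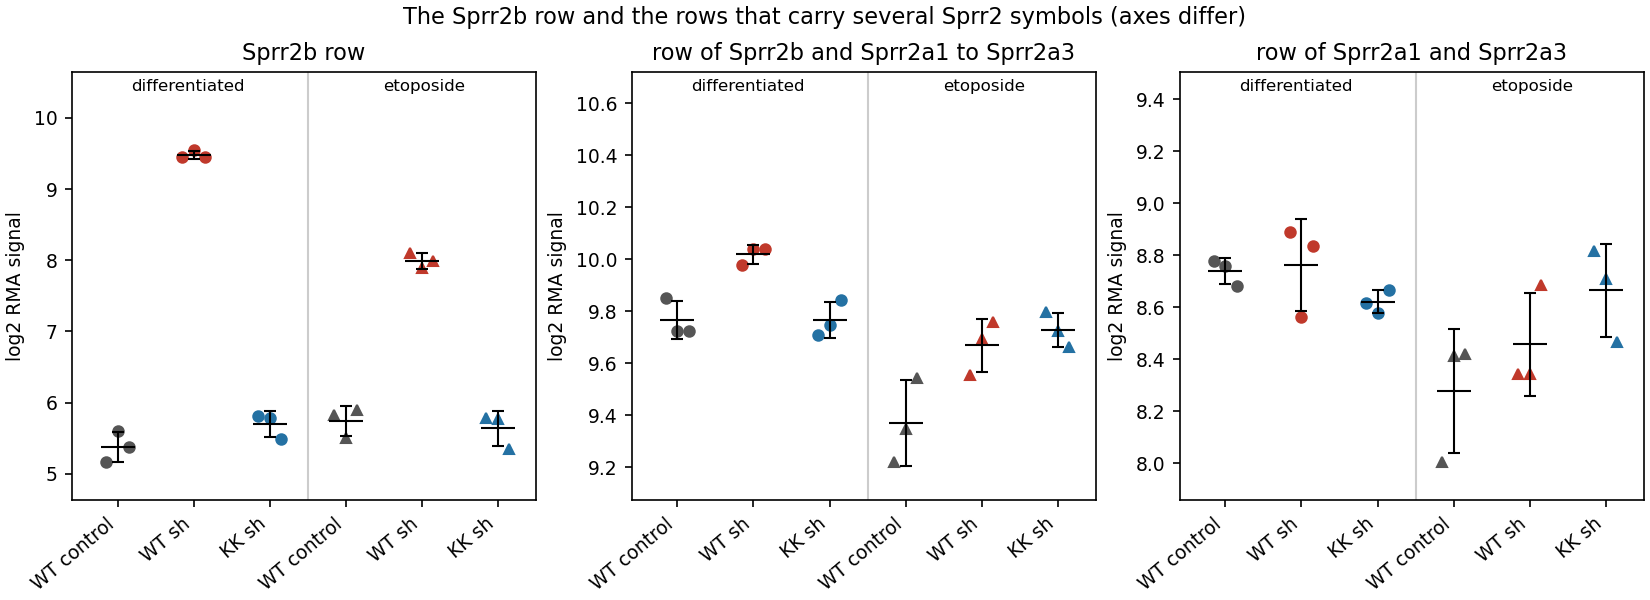
Log2 RMA signal (vertical axes, which differ between panels) of the Sprr2b row, the row annotated to Sprr2b and Sprr2a1 to Sprr2a3, and the row annotated to Sprr2a1 and Sprr2a3, on each array, with the mean and SD of 3 arrays; circles are differentiated, triangles etoposide. In etoposide-treated KK-TAF3 cells (KK sh) Sprr2b is back near 5.64 while the shared row stays at 9.73.

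Over the 7 rows, PIP4K2B depletion in differentiated cells put 3 past the threshold, all higher, where 0.495% of all rows were past it in that direction, and KK-TAF3 against WT-TAF3 put 1 higher (0.2% of all rows) and 1 lower (0.138%). Nothing is read from these, since the comparison chose the genes or shares arrays with the one that did. KK-TAF3 sh-PIP4K2B against WT-TAF3 control cells put 1 higher (0.759%), Sprr2e, which was lost in all 6 fits with an array left out. After etoposide depletion put 1 row past it, higher (0.174% of all rows), KK-TAF3 against WT-TAF3 1 higher (0.208%) and 1 lower (0.0422%), and KK-TAF3 sh-PIP4K2B against WT-TAF3 control cells 2 higher (0.478%). Without overlap between groups, 4 rows were above the control on etoposide depletion, where 5.85% of all rows were. The median difference of the 7 rows was 0.31 in that comparison and -0.08 for KK-TAF3 against WT-TAF3, against 0.01 and -0.01 over all rows. The 7 other Sprr genes gave medians of 0.31 and -0.06, and 3 of the 8 other Sprr rows lay above the control without overlap on depletion, so the shift of the median is not particular to the 7 rows. When 1 of the 6 arrays was left out, the count on depletion in differentiated cells was 1 or 2. Sprr2b was kept in all 6 such fits. Sprr2i was lost in 5, all but that without WT-TAF3 sh-PIP4K2B replicate 3, and Sprr2j-ps in 3, without WT-TAF3 sh-PIP4K2B replicate 2 (0.57) or 3 (0.66) or WT-TAF3 control replicate 1 (0.51). The KK-TAF3 call of Sprr2e in differentiated cells was lost whichever of the 6 arrays was left out, with values of 0.57 to 0.70.

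**Figure D3:**
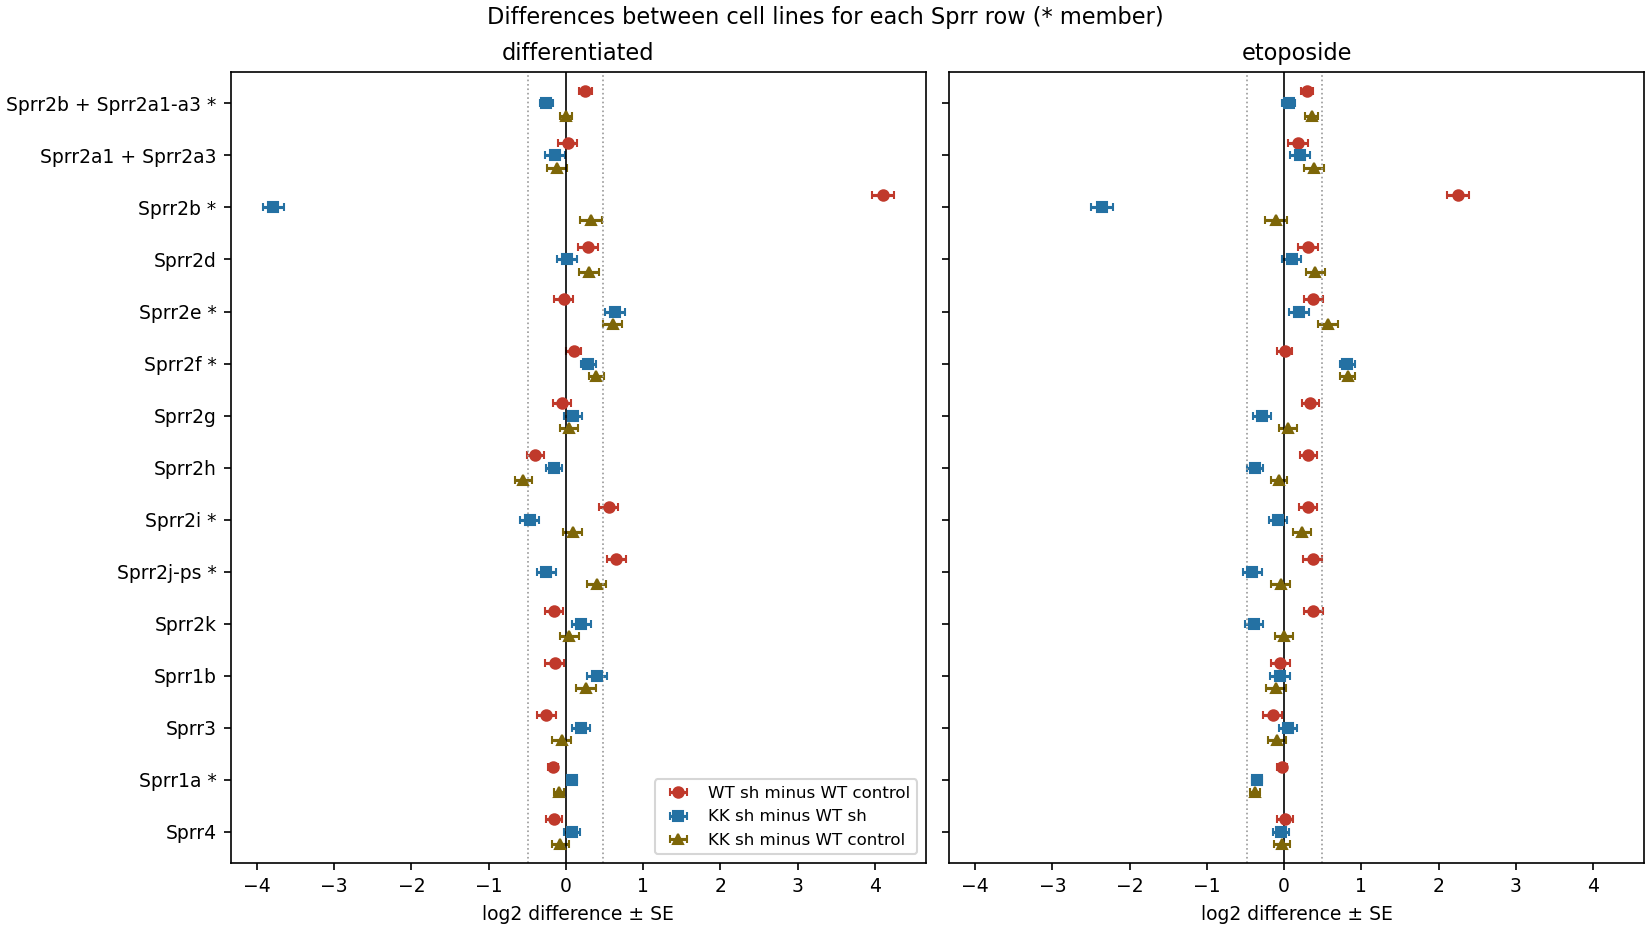
Log2 differences with their SE (horizontal axes) for each Sprr row in differentiated (left) and etoposide-treated cells (right): depletion (sh-PIP4K2B minus control, both in WT-TAF3 cells), KK-TAF3 against WT-TAF3 with the shRNA, and KK-TAF3 sh-PIP4K2B against WT-TAF3 control. Dotted lines mark 1.4-fold and asterisks the 7 rows of the genes described. Sprr2b lies at 4.11 and -3.79 on the left and 2.25 and -2.36 on the right, and every other row lies between -0.55 and 0.82.

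The other Sprr symbols with a row of their own are Sprr2d, Sprr2g, Sprr2h, Sprr2k, Sprr1b, Sprr3 and Sprr4, which include the esophageal envelope precursor Sprr3. Of these 7 genes none was past the threshold on depletion or for KK-TAF3 against WT-TAF3 in either treatment (limma, and 0 without p-value adjustment too, at p under 0.05 and 1.4-fold). Sprr2h alone was past it between KK-TAF3 sh-PIP4K2B and WT-TAF3 control cells after differentiation, at -0.55 (SE 0.11, limma adjusted p = 0.0143), with 5.64, 5.86 and 5.84 in the former and 6.33, 6.43 and 6.23 in the latter. That call was lost in 3 of 6 fits with an array left out, without KK-TAF3 sh-PIP4K2B differentiated replicate 1 or WT-TAF3 control differentiated replicate 1 or 2 (limma adjusted p = 0.0776, 0.0632 and 0.0768).

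Between etoposide and differentiation, Sprr2k and Sprr3 were lower after etoposide in all 3 lines, as were Sprr1a and Sprr2j-ps. The differences were -1.30, -0.77 and -1.36 for Sprr2k in control, depleted WT-TAF3 and KK-TAF3 cells and -1.17, -1.06 and -1.21 for Sprr3 (SE 0.12 each, limma adjusted p from 1.15e-06 to 2.42e-04). Sprr1b gave -0.50, -0.40 and -0.86 (SE 0.13), the second under the fold limit, and Sprr2h -0.49 (SE 0.11) in control cells, past the threshold there. In the gene order of the annotation Sprr2j-ps, Sprr2k, Sprr1b, Sprr3 and Sprr1a follow one another without another Sprr gene between them, and Sprr4, beyond Sprr1a, gave -0.09, 0.07 and -0.05 (SE 0.11). Sprr2f gave 0.16, 0.06 and 0.59 (SE 0.10). Over the 18 arrays Sprr1a correlated at r = 0.96 with Sprr2k and with Sprr3, 0.90 with Sprr2j-ps, 0.86 with Sprr1b and 0.12 with Sprr4. Sprr1a was far brighter, with mean linear signals in control cells of 15011 after differentiation and 6024 after etoposide. Sprr2k gave 253 and 102. Whether the dimmer rows read Sprr1a transcript was not tested, so these neighbours may not have changed separately. The 7 rows gave 2, 3 and 2 past the threshold lower in control, depleted WT-TAF3 and KK-TAF3 cells, where 2.06%, 5.16% and 3.82% of all rows were, and 1 higher in KK-TAF3 cells, where 3.1% were. Medium, time and cell state differ between these treatments together with the drug and cannot be told apart.

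**Figure D4:**
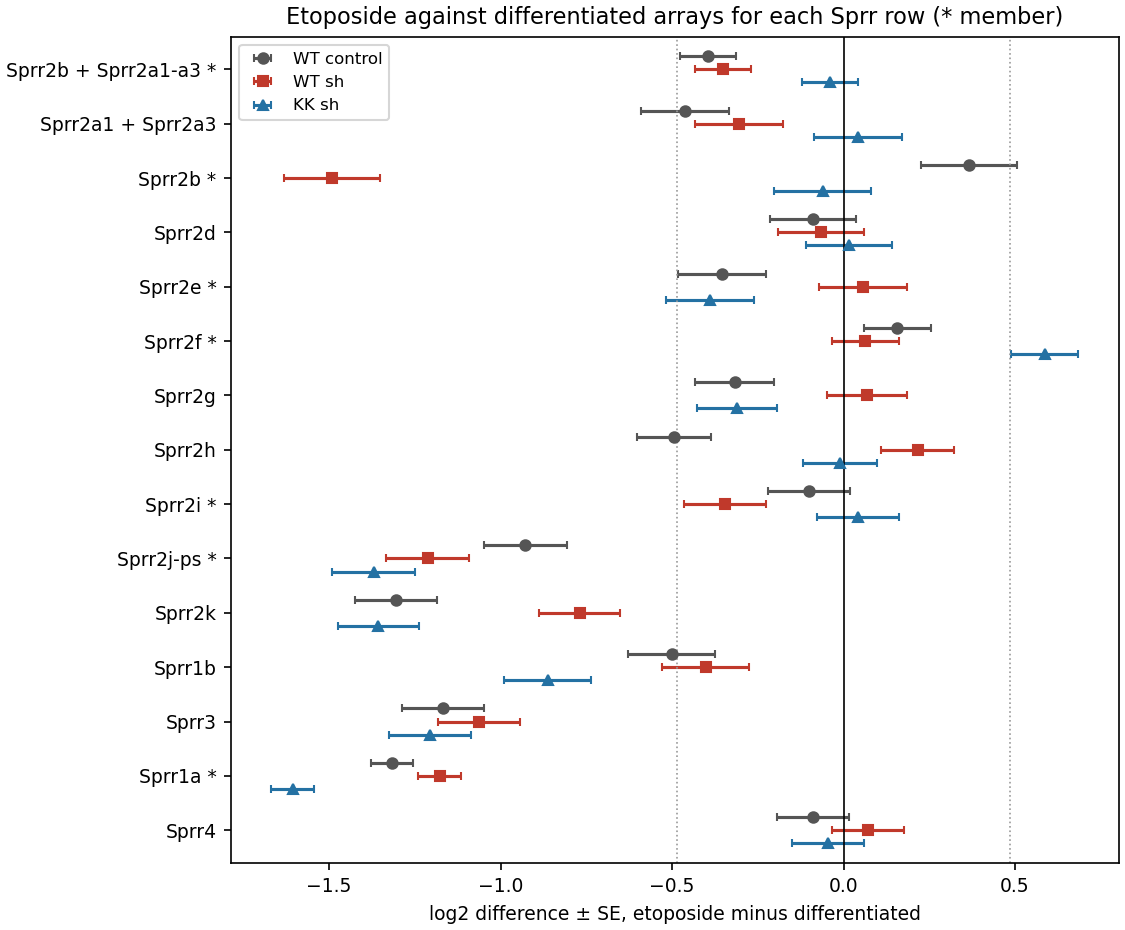
Log2 difference with its SE (horizontal axis), etoposide minus differentiated, for each Sprr row in the 3 cell lines, in the gene order of the cluster except for the rows of several symbols at the top; dotted lines mark 1.4-fold and asterisks the 7 rows of the genes described. The rows from Sprr2j-ps to Sprr1a are below zero in every line (-0.40 to -1.61), and Sprr2b is lower by more than 1.4-fold only where PIP4K2B was depleted in WT-TAF3 cells (-1.49).

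Lists of known epidermal genes give the background in which these genes moved. None of 32 other cornified envelope precursors and fused S100 genes of the cluster and none of 13 S100 genes was past the threshold in any of the 6 genotype comparisons (limma, and 0 without p-value adjustment too, at p under 0.05 and 1.4-fold). Their differences on depletion ran from -0.36 to 0.38 and from -0.37 to 0.12 in differentiated cells. Of 17 genes for cross-linking and scaffolding the envelope, 2 were past it in some comparison. In differentiated KK-TAF3 sh-PIP4K2B against WT-TAF3 control cells both were past it, higher, where 0.759% of all rows were, with differences of up to 0.63. Cst6, an inhibitor of the protease that activates transglutaminase, was also higher on depletion in differentiated cells by 0.56 (SE 0.09). Serpinb2, a protease inhibitor that is cross-linked into the envelope, was higher after etoposide by 0.65 on depletion (SE 0.14, limma adjusted p = 0.0333) and by 1.29 in KK-TAF3 sh-PIP4K2B over control cells (SE 0.14, limma adjusted p = 2.13e-04).

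Of 22 keratinocyte markers measured, 1 was past the threshold on depletion in differentiated cells and none in etoposide-treated cells (also 0 at an unadjusted p). The former was Krt14, the keratin of basal keratinocytes, at 0.56 (SE 0.08). Krt14 after etoposide differed by 0.47 on depletion, under the fold limit, and by -0.54 in KK-TAF3 against WT-TAF3 cells (SE 0.08, limma adjusted p = 0.00867). Itga6, the integrin of the basal epidermis that myoblasts also carry, was higher there by 0.61 (SE 0.10, limma adjusted p = 0.0158). The summed linear signal of the list ran from 3646 to 3917 over differentiated and from 4660 to 5479 over etoposide arrays.

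**Figure D5:**
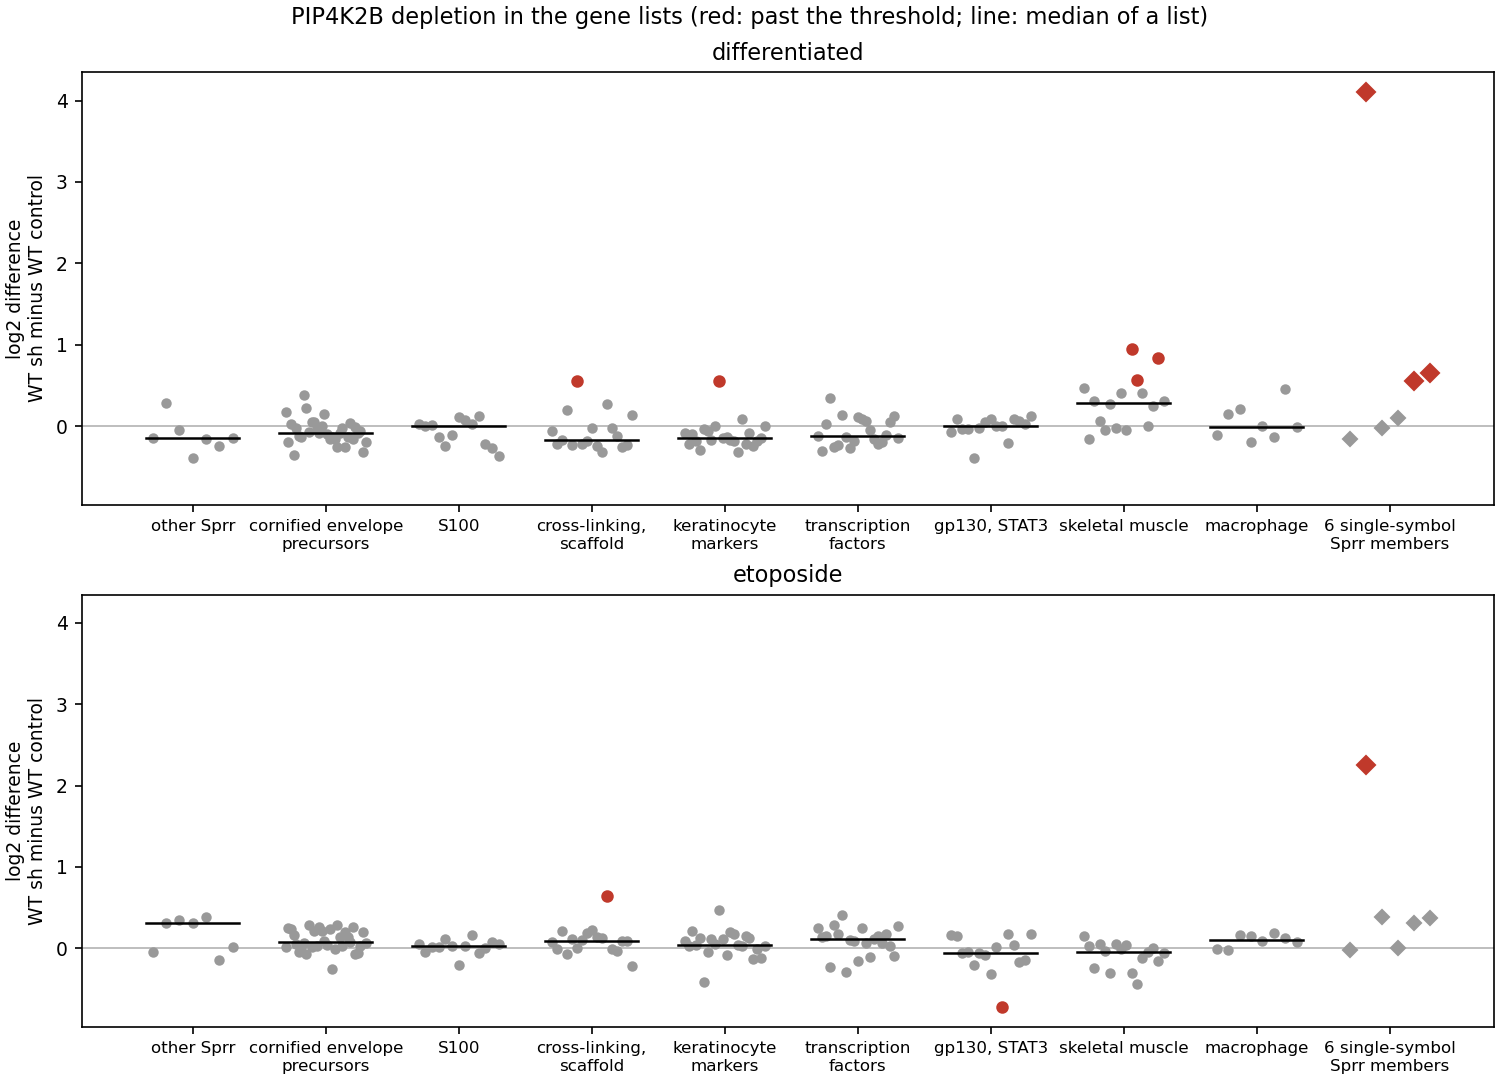
Log2 difference on PIP4K2B depletion (vertical axes, sh-PIP4K2B minus control, both in WT-TAF3 cells) for each gene of 9 lists and for the 6 single-symbol rows of the Sprr genes described (diamonds), in differentiated (top) and etoposide-treated cells (bottom). Red marks genes past the threshold, for the Sprr genes described in differentiated cells as a description only, and black lines the median of a list. Sprr2b lies at 4.11 and 2.25, and no gene of the lists exceeds 0.95.

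Among 21 transcription factors known to act on Sprr promoters, which include AP-1 subunits, Klf4 and ETS factors, none was past the threshold on depletion or for KK-TAF3 against WT-TAF3 in either treatment (also 0 at an unadjusted p), with depletion differences of -0.30 to 0.34 in differentiated and -0.29 to 0.41 in etoposide-treated cells. The AP-1 subunit Fosl1 was higher by 0.54 (SE 0.06) in KK-TAF3 sh-PIP4K2B than in WT-TAF3 control cells after differentiation. Among 15 genes of gp130 and STAT3 signalling, which induces Sprr1a in heart muscle, 1 was past the threshold on depletion after etoposide, the LIF receptor Lifr, which fell by 0.72 (SE 0.13, limma adjusted p = 0.0101). None was past it on depletion in differentiated cells, also at an unadjusted p. Skeletal muscle markers differed in the differentiated cells. On depletion 3 of 16 were higher (0.495% of all rows were), the sarcomere genes Myl1 (0.95, SE 0.14), Tnnt3 (0.83, SE 0.07) and Mylpf (0.56, SE 0.07). In KK-TAF3 against WT-TAF3 cells 6 were lower (0.138% of all rows were). Among them were Mymk, the fusion factor myomaker, by 1.57 (SE 0.11), the muscle actin Acta1 by 1.18 (SE 0.11), the regulator Myog by 1.02 (SE 0.09) and the embryonic myosin Myh3 by 0.93 (SE 0.09). Between KK-TAF3 sh-PIP4K2B and WT-TAF3 control cells 4 of the 16 were past the threshold lower and 0 higher. The share of all rows lower in that comparison is not given here, so nothing is read from this count. The median difference of the 16 was -0.0041, against -0.00093 over all rows. Their differences ran from -1.16 to 0.27 over the list, where Sprr2b differed by 0.32. After etoposide none of the 16 was past the threshold in the 3 genotype comparisons (also 0 at an unadjusted p), while Sprr2b was past it on depletion and for KK-TAF3 against WT-TAF3.

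Sprr rows were left out of a search for rows like Sprr2b, although Sprr2i correlated with it at r = 0.78. The likest other rows were taken from 4383 single-symbol rows whose group means ranged over more than 1.4-fold, by Pearson's r over the 18 arrays. They were Rad54b (r = 0.89), a DNA repair helicase, Fmo1 (0.80), a flavin monooxygenase, Synpo2 (0.79), an actin-binding protein of the Z disc, Lrrn1 (0.78), a leucine-rich repeat membrane protein, and Efhd1 (0.78), a calcium-binding mitochondrial protein. These r values rest on 6 group means and were not tested. Rad54b had group means of 7.40, 8.16 and 7.53 in differentiated control, depleted WT-TAF3 and KK-TAF3 cells and of 7.28, 7.72 and 7.57 after etoposide. It shared with Sprr2b the highest mean in depleted WT-TAF3 cells of each treatment, with a depletion difference of 0.76 (SE 0.08) after differentiation and 0.44 (SE 0.08) after etoposide. Ranked over the 9 arrays of one treatment the likest rows changed. They were Lrrn1, Acox2, Anxa8, Trdn and Hjv (r from 0.97 to 0.99) in differentiated cells and Krt14, Lrrc73, Epha4, Plxna4 and Slc29a1 (r from 0.91 to 0.95) in etoposide-treated cells.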

How the data were processed

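RNA of 18 C2C12 cultures in 6 groups of 3 was hybridised to Affymetrix mouse gene arrays. The authors made the deposited log2 signals in Affymetrix Expression Console by RMA: background correction, quantile normalization across arrays and 1 summary value for each transcript cluster (a row). Versions and genome build are not given in the sources used here. Quantile normalization can hide shifts common to all genes. The values were used as deposited. GEO's platform annotation gave 1 symbol to 21789 of 35556 rows, several to 1621 and none to 12146. The study names a later chip generation than this annotation, so gene names rest on it.

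Differences were fitted in R 4.3.3 with limma 3.58.1 (12 residual and 2.90 prior degrees of freedom), checked on simulated data, and p-values were adjusted over all rows by the Benjamini-Hochberg method. Members, lists and tests were chosen with earlier results of these data known. Named were every Sprr row, list genes past the threshold (at most 4 a list and comparison) and the 5 rows most like Sprr2b without an Sprr symbol. The precision is limited by 3 arrays a group. Between replicate numbers of the labels, deviations correlated in each pair only for depletion after etoposide (r = 0.29, 0.26 and 0.26), so the numbers may pair those arrays. The printed p-values come from the model without pairing. Pairing within that comparison alone was not fitted. The settings tried were p without adjustment, no fold limit, 1 row per gene, a trended robust prior, brighter rows, renormalization, centring, the array median as covariate, a replicate block, fewer groups and leaving out each array. Promoters were aligned with Biopython 1.88 (match 1, mismatch -1, gap -2 and -0.5). Protein sequences were not analysed here.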

Additional observations from a re-analysis of the deposited data

Results flagged for a closer look

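The Sprr2h row differed in its response to PIP4K2B depletion between the treatments. In differentiated cells it read 6.33, 6.43 and 6.23 in WT-TAF3 control and 5.80, 6.01 and 5.98 in WT-TAF3 sh-PIP4K2B cells, a difference of -0.40 (SE 0.11). After etoposide it read 5.66, 5.93 and 5.92 in control and 6.12, 6.24 and 6.09 in depleted cells, a difference of 0.31 (SE 0.11). The groups did not overlap in either treatment, and the directions were opposite. The difference between the treatments was 0.71 (SE 0.15, limma adjusted p = 0.0417, 3 arrays a group). Neither single difference passed (limma adjusted p = 0.0706 and 0.238). The call was lost in 10 of 12 fits that each left out an array (limma adjusted p from 0.0169 to 0.112 over the 12), and it was kept without WT-TAF3 control differentiated replicate 3 and without WT-TAF3 sh-PIP4K2B etoposide replicate 1. With arrays centred on their medians it was 0.57 (limma adjusted p = 0.0739), and with the array median as a covariate 0.71 (limma adjusted p = 0.343). These alternatives were chosen after the data had been seen.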

How the results depend on the processing

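The counts of member rows past the threshold were 3, 2, 1, 2 and 2 for depletion and for KK-TAF3 against WT-TAF3 in differentiated cells, for the same comparisons after etoposide, and for etoposide against differentiation in control cells. The shares of all rows in the directions of these calls were 0.495% higher, then 0.2% higher and 0.138% lower. After etoposide they were 0.174% higher, then 0.208% higher and 0.0422% lower. In the last comparison 2.06% were lower. Counts under other settings follow without a share and show only how calls depend on the setting. Restricted to rows above the median signal, which leaves only the Sprr1a row and the shared row, the counts were 0, 0, 0, 0 and 1. With the array median as a covariate depletion in differentiated cells gave 1. With only the groups compared in the fit, depletion in differentiated cells, KK-TAF3 in differentiated cells and KK-TAF3 after etoposide gave 1 each. Leaving out 1 array gave 1 to 2 for depletion in differentiated cells, 1 to 2 for KK-TAF3 in differentiated cells, 1 to 2 for depletion after etoposide and 2 in every fit of the last comparisons. With the replicate block the counts were 3, 2, 1, 2 and 2, and the block changed no call of a member row. Sprr2b stayed between 3.94 and 4.22 on depletion and -3.84 and -3.68 for KK-TAF3 in differentiated cells, and between 2.13 and 2.33 and -2.43 and -2.21 after etoposide, over 15 alternatives each; the highest limma adjusted p after etoposide was 0.00695 for depletion and 0.00996 for KK-TAF3, both with only the groups compared in the fit. Of 530 values of member rows under an alternative 10 turned sign, none of them past the threshold. Many of the 530 could not turn. The difference itself is fixed under p without adjustment, no fold limit, 1 row per gene, the trended robust prior and brighter rows. It is also fixed with fewer groups and with the replicate block. Only renormalization, centring, the covariate and leaving out an array could move a value, which holds for the Sprr2b ranges too. Over all rows, with only the groups compared in the fit, 7 in place of 194 rows were past the threshold for depletion and 2 in place of 89 for KK-TAF3 after etoposide, and the array median as a covariate gave 141 in place of 275 for depletion in differentiated cells. In the order above, all-row counts were 275, 120, 194, 89 and 2079, against 914, 482, 546, 330 and 2487 at p without adjustment and 703, 187, 522, 132 and 5374 with no fold limit. The cause of the other lost calls was not tested. With dim signals of 5 to 6 for most Sprr2 rows, small differences there lie close to the spread of 3 arrays.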
